A study of Mus musculus with 2 samples.

Results

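Pdx1, Nkx6-1, Nkx2-2 and Mnx1, 4 genes of homeodomain transcription factors known for their place in beta cell identity, were followed across the cells of mouse pancreatic islets. They were taken by name from the count tables, and all 4 had a row in both tables, out of 33038 genes listed in either. Their levels were read in cells grouped by hormone content, so the grouping used none of the 4 genes.

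The data are single-cell transcriptomes made with RevGel-seq, in which a cell is tied to a barcoded bead, held apart from other complexes in a gel and lysed there. Islets of male C57BL/6J mice aged 8 weeks were dissociated, and the number of animals is not stated. The only group in the labels is a control group. It has 2 libraries, which the study's methods call technical replicates of 1 preparation, each loaded with 10000 cells, so every SD and p below describes the spread between libraries and not between animals. Library 1 held 735 cells and library 2 held 748, with 15931154 and 17440292 UMIs (unique molecular identifiers, each standing for a captured transcript), and no barcode was shared. A cell was counted for insulin (Ins1 and Ins2 together), for glucagon (Gcg), for somatostatin (Sst) or for pancreatic polypeptide (Ppy) from 1% of its UMIs. This gave 9 groups. Insulin only cells, the hormone state of beta cells, numbered 182 in library 1 and 190 in library 2. Gcg only cells, the alpha state, numbered 182 and 174. Sst only cells, the delta state, numbered 35 and 23, and Ppy only cells, the gamma state, numbered 54 and 68. Mixed states were Gcg and Ppy (65 and 86 cells), Sst and Ppy (77 and 71), Gcg with Sst (12 and 17) and insulin with another hormone (37 and 27). In 91 and 92 cells no hormone reached the threshold. Levels are given as UMIs of a gene per 1000000 UMIs of all genes other than the 5 hormone genes, here called CPM, for the summed cells of a group in each library. Differences come from edgeR's quasi-likelihood test on those sums, fitted over 14371 genes with Benjamini-Hochberg adjustment at 0.05. They are log2 values, given with their standard error (SE).

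Cells of the labelled tissue were recognisable by other markers. Beta markers without insulin (Iapp, Mafa, Ucn3, Slc2a2 and G6pc2) summed to 52590 and 54030 CPM in insulin only cells, and to at most 667 CPM in Gcg only cells. In Sst only cells they came to 15070 and 15380 CPM, nearly all from Iapp, at 15200 ± 215 CPM. Iapp also made up most of the insulin only sum, at 48980 ± 916 CPM. Alpha markers without Gcg stood at 45620 and 47190 CPM in Gcg only cells, and delta markers without Sst at 6711 and 6604 CPM in Sst only cells. The gamma list held Ppy alone, so Ppy only cells had no check by a gamma marker outside the hormone. Without the hormones, they held 4228 and 1593 CPM of beta markers, unlike between the libraries. Alpha markers came to 2286 and 2071 CPM in them, and delta markers to 353 and 353 CPM.

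Homeodomain proteins bind DNA through a conserved fold of helices, and the beta cell program is known to rest on several of them together. Pdx1 is required for the pancreas to form at all and, in adult beta cells, for transcription of the insulin genes. Nkx6-1 acts downstream in beta cell development and keeps glucose-stimulated secretion intact. Nkx2-2 is needed for several endocrine lineages and represses non-beta genes in beta cells, partly through Groucho (Tle) corepressors. Mnx1 acts early in the pancreatic bud and again late, in beta cell maturation, where it holds beta cells apart from a delta-like fate.

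On GRCm38, Pdx1 (ENSMUSG00000029644) lies at chr5:147269959-147275848 on the plus strand. Nkx6-1 (ENSMUSG00000035187) lies at chr5:101658139-101664996 and Mnx1 (ENSMUSG00000001566) at chr5:29473034-29478470, both on the minus strand of the same chromosome. Nkx2-2 (ENSMUSG00000027434) lies at chr2:147177546-147194243 on the minus strand. Antisense genes overlap a pair of them: Plut across Pdx1 (543 UMIs against 2730 of Pdx1 over both libraries), and 6430503K07Rik (462 UMIs) and Nkx2-2os (4 UMIs) across Nkx2-2 (3300 UMIs). Whether counting used strand is not stated, so reads of these partners cannot be told from those of the factors.

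Promoters are shown as the stretch around the RefSeq start that no GENCODE exon covers, because all 4 factors were present in insulin only cells while their levels elsewhere took different orders. RefSeq windows (GRCm38.p6) reach from 250 bases before to 50 after each start. The stretch was chr5:147269847-147269958 for Pdx1, chr2:147186456-147186652 for Nkx2-2 and chr5:29478471-29478720 for Mnx1. The Nkx2-2 stretch lies before the RefSeq start but inside the gene span that GENCODE gives, which begins farther upstream, so it is intronic there. For Nkx6-1 the whole window (chr5:101664662-101664961) lies in exon sequence, and it is only named. Sequences run 5′ to 3′ on the strand of the gene, and capitals mark matches, on either strand, to TAAT (a homeodomain core), AAGTG (an NKX2 family core), CACGTG (an E-box), CCAAT or TATAAA.
Pdx1 promoter: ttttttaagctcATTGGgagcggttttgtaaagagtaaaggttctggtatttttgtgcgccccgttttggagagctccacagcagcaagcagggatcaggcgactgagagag
Nkx2-2 promoter: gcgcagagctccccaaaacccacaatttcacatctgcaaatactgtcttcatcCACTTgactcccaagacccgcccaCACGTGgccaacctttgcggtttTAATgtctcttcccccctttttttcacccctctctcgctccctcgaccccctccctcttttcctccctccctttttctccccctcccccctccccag
Mnx1 promoter: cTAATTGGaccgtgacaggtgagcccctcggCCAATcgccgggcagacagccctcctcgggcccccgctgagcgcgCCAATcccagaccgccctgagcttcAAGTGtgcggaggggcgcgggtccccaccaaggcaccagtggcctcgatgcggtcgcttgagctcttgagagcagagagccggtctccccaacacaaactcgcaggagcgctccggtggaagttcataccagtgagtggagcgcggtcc
Over the whole windows, TAAT occurred 1 time in Nkx2-2 and 1 time in Mnx1 and in neither of the other windows, where 58% of all 32851 promoter windows hold it. In Mnx1 the TAAT match overlaps a CCAAT match read from the other strand. AAGTG occurred 1 time each in Pdx1, Nkx2-2 and Mnx1 (46.4% of all windows), in Pdx1 outside the printed stretch. CACGTG occurred 1 time in Pdx1 and 1 time in Nkx2-2 (7.15%), in Pdx1 inside the exon. CCAAT occurred 2 times in Pdx1, with 1 in the printed stretch, and 3 times in Mnx1 (37.4%), and TATAAA in none (13.6%). The Nkx6-1 window held none of the 5 motifs.

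Pdx1, the factor named for pancreas and duodenum, was highest in insulin only cells, next in insulin cells with another hormone and then in the Sst only and Sst and Ppy groups. In insulin only cells it stood at 337 and 336 CPM in the libraries. Sst only cells held 154 and 154 CPM, and Sst and Ppy cells 161 and 163 CPM. The somatostatin groups thus held 45.8% ± 0.168 and 48.1% ± 0.472 (SD, n = 2) of the insulin only level. Ppy only cells held 37.8 and 30.5 CPM, and Gcg only cells 6.48 and 1.42 CPM. The difference of insulin only cells was 1.29 (SE 0.24) against Sst only cells, an adjusted p of 9.46e-04 in edgeR. Against Ppy only cells it was 3.38 (SE 0.25, adjusted p 8.29e-09), and against Gcg only cells 6.48 (SE 0.31, adjusted p 1.33e-11). As a ratio of summed UMIs, insulin only cells held 87.3 times the Pdx1 of Gcg only cells, with a counting interval of 56.9 to 141. The Gcg only value rests on 17 UMIs in library 1 and 4 in library 2, and the fitted difference was 7.89 without library 1, 5.73 without library 2, 7.21 at a hormone threshold of 0.5% and 5.04 at 5%.

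Nkx6-1, which sustains insulin biosynthesis and secretion, followed a different order. Its level was 1384 and 1511 CPM in insulin only cells, 386 and 418 CPM in Ppy only cells, 83.4 and 65.2 CPM in Gcg only cells and 28.6 and 10.1 CPM in Sst only cells. Among the 4 single-hormone groups, Ppy only cells took the second place that Sst only cells held for Pdx1. Insulin only cells were higher by 1.91 (SE 0.18, adjusted p 2.07e-07) than Ppy only cells, by 4.35 (SE 0.20, adjusted p 8.19e-12) than Gcg only cells and by 6.26 (SE 0.28, adjusted p 2.09e-11) than Sst only cells in the edgeR fit. Ppy only cells held 27.8% ± 0.160 (SD, n = 2) of the insulin only level. In Sst only cells 81.2% of the 16 UMIs came from 3 cells, and in Gcg only cells the 3 highest cells gave 18.4% of 403 UMIs, with 1 cell of library 1 at 43 UMIs. The difference from Sst only cells was 7.40 without library 1, 5.37 at a hormone threshold of 5% and 5.20 after each cell was thinned to 4000 non-hormone UMIs.

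Nkx2-2, the pan-endocrine member, separated the Sst only state from the other single-hormone states and showed no called difference among those. It stood at 158 and 184 CPM in insulin only cells, 170 and 166 CPM in Gcg only cells and 182 and 173 CPM in Ppy only cells. The insulin only range overlapped each of the others, while both Gcg only values lay below both Ppy only values. Sst only cells were lower, at 70.3 and 114 CPM, as were Sst and Ppy cells, at 86.5 and 92.3 CPM. The difference of insulin only from Gcg only cells was 0.10 (SE 0.16, adjusted p 0.719), with a 95% interval of -0.26 to 0.45, and from Ppy only cells 0.01 (SE 0.16, adjusted p 0.986), with an interval of -0.35 to 0.37. A difference of up to 1.37-fold against Gcg only cells therefore fell within the error of these libraries. From Sst only cells it differed by 1.11 (SE 0.21, adjusted p 9.90e-04, edgeR), a fold of 2.16 with an interval of 1.55 to 3.00.

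Mnx1, the motor neuron and pancreas homeobox gene, was the scarcest in UMIs. It had at most 4 UMIs in any group that carried Gcg, Sst or Ppy without insulin. Insulin only cells held 95 UMIs in library 1 and 89 in library 2, or 35.1 and 37.5 CPM. Gcg only cells held 1 and 3 UMIs, Ppy only cells 2 and 0, Gcg and Ppy cells 1 and 1. In Sst only, Sst and Ppy, and Gcg with Sst cells 0 UMIs were seen in either library. With the limit of a count of 0 taken as 3 UMIs over a group, insulin only cells were at least 9.09-fold higher than Sst only cells and at least 26.2-fold higher than Sst and Ppy cells. The ratio to Gcg only cells, from 184 and 4 UMIs, was 49.3 with a counting interval of 18.9 to 183, and to Ppy only cells, from 2 UMIs, 51.9 with an interval of 14.2 to 432. To cells without a hormone, which held 4 and 7 UMIs, the ratio was lower, at 12.3 with an interval of 6.73 to 25.1. All 3 edgeR tests of insulin only against other single-hormone cells passed, with adjusted p-values of 6.98e-06 (Gcg only), 7.58e-04 (Sst only) and 3.98e-05 (Ppy only). The fitted difference from Gcg only cells was 5.53 (SE 0.64), and 6.25 without library 2.

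**Figure D1:**
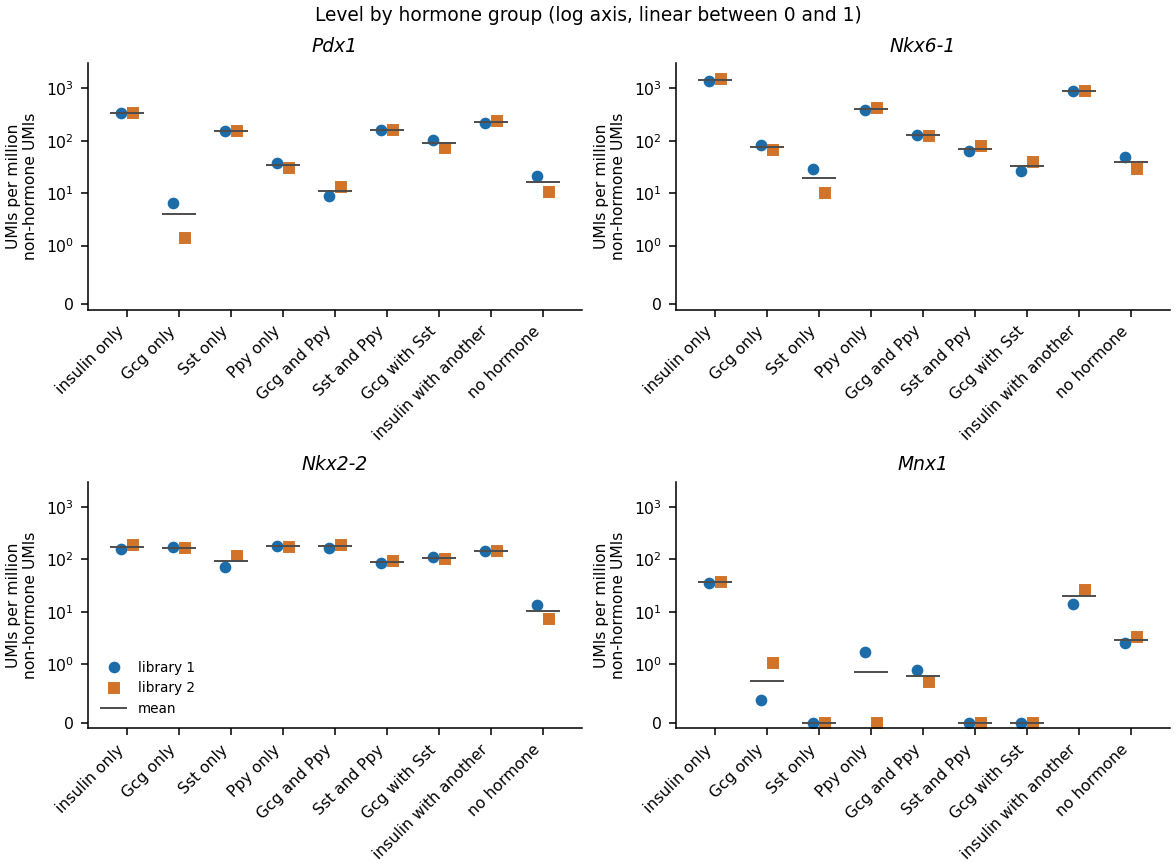
Level of each factor in CPM (vertical, log axis that is linear from 0 to 1) in the 9 hormone groups, with 1 circle for library 1, 1 square for library 2 and a line at their mean. Pdx1 stays above 150 CPM in the Sst only and Sst and Ppy groups, Nkx6-1 is at 386 and 418 CPM in Ppy only cells, Nkx2-2 is between 158 and 184 CPM in insulin only, Gcg only and Ppy only cells and lower in Sst only cells, and Mnx1 lies at or near 0 outside insulin cells.

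For reading these counts, the share of all 14371 genes called in the same comparison was 24.9% for insulin only against Gcg only cells, 14.8% against Sst only cells and 20.3% against Ppy only cells. In the first comparison 3 of the 4 factors were called, in the second 4 of 4 and in the third 3 of 4, every call higher in insulin only cells. The calls against Sst only cells over all genes were 1120 higher and 1008 lower, but 774 and 1358 without TMM scaling and 811 and 1096 in DESeq2. Against cells without a hormone 56.5% of genes were called, and so were 4 of 4 factors, by 4.36 (Pdx1, SE 0.27), 5.15 (Nkx6-1, SE 0.22), 4.01 (Nkx2-2, SE 0.22) and 3.52 (Mnx1, SE 0.56), with adjusted p-values in edgeR of at most 5.77e-05.

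The non-insulin groups were also compared with each other. Between Sst only and Gcg only cells, Pdx1 was higher in Sst only cells by 5.18 (SE 0.37, adjusted p 8.59e-09, edgeR), while Nkx6-1 (-1.91, SE 0.34, adjusted p 5.67e-04) and Nkx2-2 (-1.01, SE 0.21, adjusted p 0.00237) were lower. The Nkx6-1 call did not hold when cells were thinned to equal depth (-0.73, adjusted p 0.349), and the difference was -2.78 without library 1. Between Sst only and Ppy only cells the same split was seen: Pdx1 was higher by 2.08 (SE 0.30, adjusted p 9.06e-05), Nkx6-1 lower (-4.36, SE 0.30, adjusted p 1.08e-08) and Nkx2-2 lower (-1.10, SE 0.21, adjusted p 0.00193) in edgeR. Without library 1 the Pdx1 difference from Gcg only cells was 6.59 and the Nkx6-1 difference from Ppy only cells -5.45. Gcg only cells were lower than Ppy only cells in Pdx1 (-3.10, SE 0.39, adjusted p 2.67e-05) and Nkx6-1 (-2.44, SE 0.19, adjusted p 7.29e-08), and Nkx2-2 did not pass (-0.09, SE 0.16, adjusted p 0.833). That Pdx1 difference was -4.34 without library 1, -3.82 at a hormone threshold of 0.5% and -2.0 at 5%. Mnx1 had at most 4 UMIs in any of these groups, so no fold is given. Of all genes 12.7%, 9.58% and 9.74% were called in these comparisons, against 3, 3 and 2 of the 4 factors. Between Sst only and Ppy only cells these were 721 genes higher and 656 lower, against 871 and 488 without TMM scaling and 788 and 471 in DESeq2.

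Cells with a pair of hormones were then set beside the matching single-hormone cells. Gcg and Ppy cells held 131 and 122 CPM of Nkx6-1, both above the 83.4 and 65.2 CPM of Gcg only cells, a difference of 0.77 (SE 0.20) with an unadjusted p of 9.98e-04 and an adjusted p of 0.323 in edgeR. Pdx1 stood at 8.96 and 13.2 CPM there (1.53, SE 0.50, adjusted p 0.656), and its difference was 3.13 without library 1 and 0.47 without library 2. Sst and Ppy cells held 64.2 and 77.7 CPM of Nkx6-1 against 28.6 and 10.1 CPM in Sst only cells (1.76, SE 0.36, unadjusted p 9.37e-05, adjusted p 0.269), and the difference was 2.95 without library 1 and 1.18 without library 2. In Sst and Ppy cells the 3 highest cells of each library gave 60.9% and 50.6% of its Nkx6-1 UMIs, and the median cell had 0. No factor passed in either comparison, in which 6 genes (0.0418%) and 2 genes (0.0139%) of all tested were called, with 777 and 873 genes at an unadjusted p under 0.05. The Nkx6-1 differences did pass in the fit without a filter on low counts, with adjusted p-values of 0.00142 and 3.08e-05, and in DESeq2 only the former did, at 0.0419. With cells thinned to equal depth the Nkx6-1 difference of Sst and Ppy cells was 0.59 (adjusted p 0.925).

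Insulin cells that also carried another hormone held less Nkx6-1, at 891 and 889 CPM against 1384 and 1511 CPM in insulin only cells (-0.75, SE 0.17, adjusted p 0.0226, edgeR). At a hormone threshold of 0.5% the adjusted p was 0.0812. Pdx1 was at 213 and 242 CPM (-0.61, SE 0.22, adjusted p 0.190), Nkx2-2 at 146 and 141 CPM (-0.29, SE 0.18, adjusted p 0.535) and Mnx1 at 13.8 and 26.5 CPM (-0.92, SE 0.50, adjusted p 0.486). Of all genes 2.61% were called, against 1 of the 4 factors. The 6 alpha markers, summed without Gcg, were 3557 and 4088 CPM in these cells and 1488 and 1574 CPM in insulin only cells, and the 7 acinar markers 250.0 and 217 CPM against 7.01 and 11.8 CPM, with 5 and 3 of the 7 at 0 in the former. The 4 delta markers, without Sst, were 1660 and 1496 CPM against 233 and 315 CPM, and the beta markers 40310 and 33940 CPM against 52590 and 54030 CPM. The acinar sum was not particular to these cells: it was 312 and 154 CPM in Sst only cells and 274 and 234 CPM in Sst and Ppy cells. Gcg with Sst cells had 418 and 61.3 CPM. The part of all these markers in the Nkx6-1 result was not tested.

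**Figure D2:**
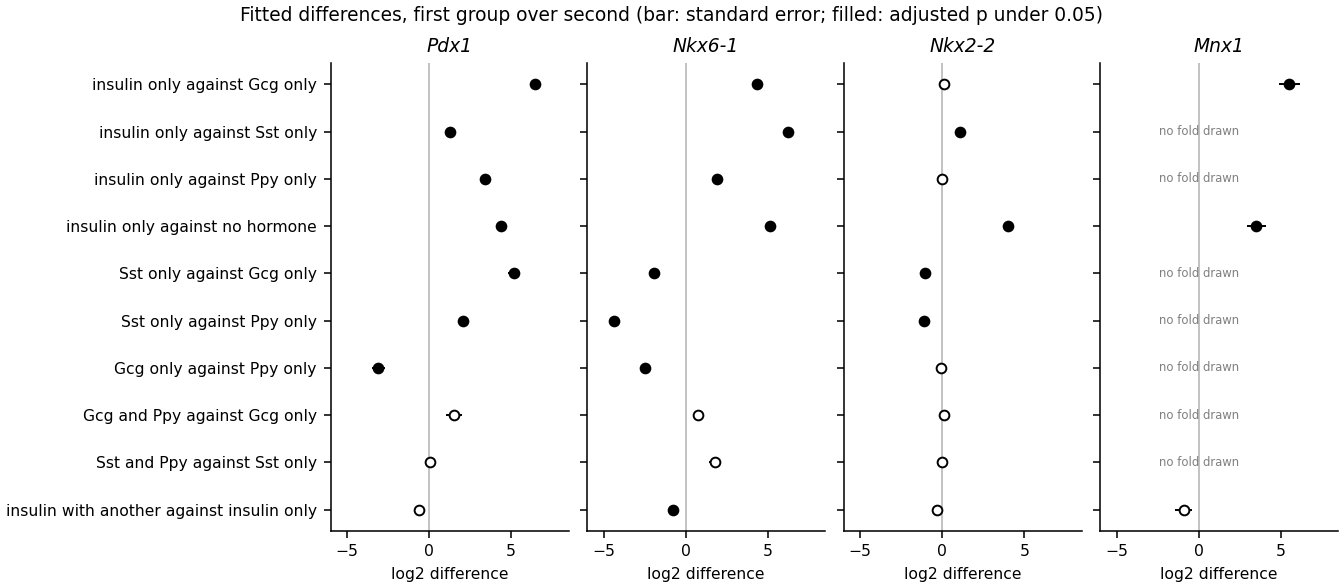
Fitted log2 differences (horizontal) of the 4 factors in 10 comparisons (vertical), the first named group over the second, with bars of 1 SE and filled points where the adjusted p is under 0.05. Pdx1 and Nkx6-1 point in opposite directions where Sst only cells are compared with Gcg only and with Ppy only cells, and Mnx1 is left without a point where a group held at most 3 UMIs.

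Detection in single cells was compared at 1 depth, since the groups differed in it: the median cell had 11753 and 10188 non-hormone UMIs in the insulin only group and 18605 and 20180 in the Ppy only group. Each cell was thinned to 4000 non-hormone UMIs, which left out 1 cell. Nkx6-1 was then seen in 96.7% and 97.9% of insulin only cells, in 75.9% and 66.2% of Ppy only cells, in 19.8% and 17.8% of Gcg only cells and in 11.4% and 4.35% of Sst only cells, the last being 4 of 35 and 1 of 23 cells. Pdx1 was seen in 73.6% and 66.7% of insulin only cells, 40.0% and 52.2% of Sst only cells, 13.0% and 11.8% of Ppy only cells and 3.85% and 0% of Gcg only cells, where 0 of 174 cells allows up to 1.72% (3 of 174). Shares of Nkx2-2 lay between 42.3% and 61.1% in the insulin only, Gcg only and Ppy only groups, and it was seen in 7 of 35 and 8 of 23 Sst only cells. Mnx1 reached 12.1% and 13.2% of insulin only cells and 0% or 0.575% of Gcg only cells. Without thinning the insulin only means were 92.5%, 99.7%, 76.6% and 30.1% for Pdx1, Nkx6-1, Nkx2-2 and Mnx1.

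**Figure D3:**
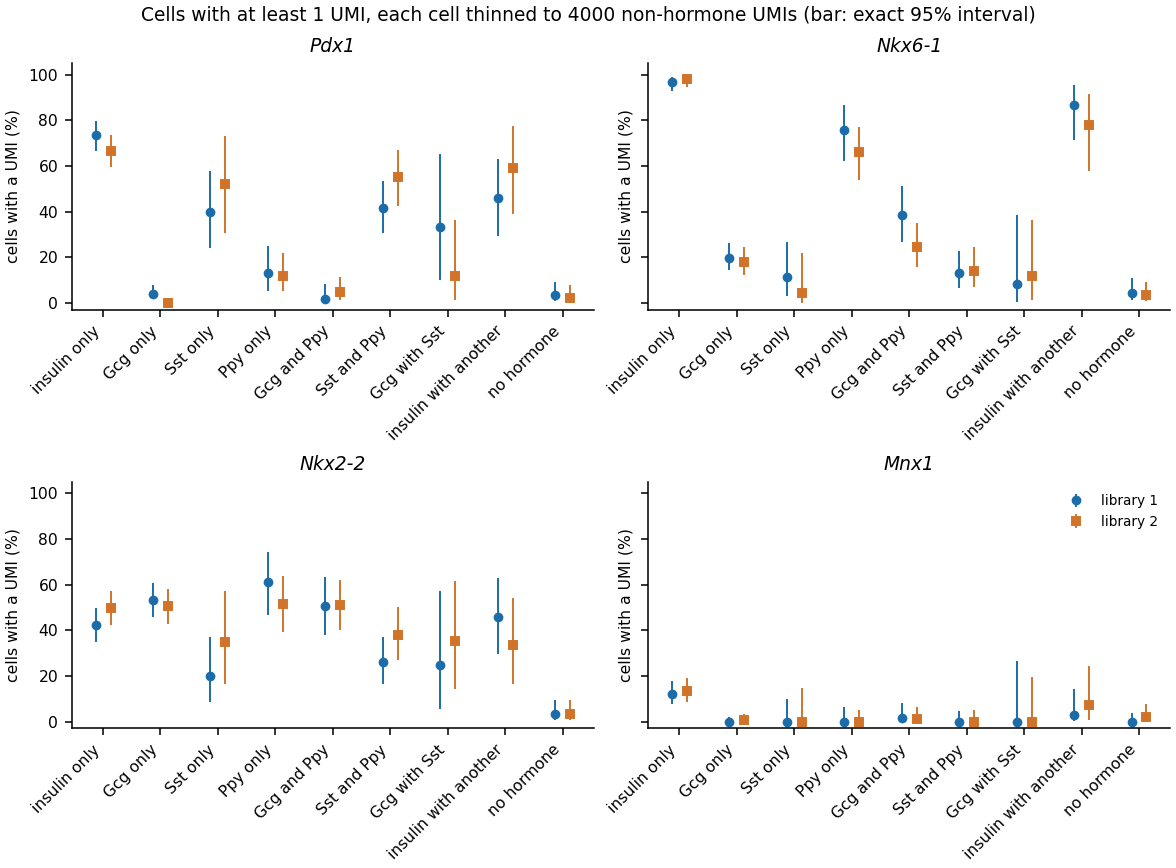
Percent of cells with a UMI of each factor (vertical) in the 9 groups after thinning to 4000 non-hormone UMIs, by library, with exact 95% binomial intervals that cover counting error only. Nkx6-1 falls from over 96% in insulin only cells to 66.2% and 75.9% in Ppy only cells and under 20% in Gcg only cells, whereas Nkx2-2 keeps to 42.3% to 61.1% in those groups.

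RNA set free by lysed cells can put UMIs of a gene into cells that do not express it, so a background was read from the cells that should lack these factors. Of the cells without a hormone, 143 were led by endothelial or leukocyte markers, with median depths of 12504 and 14122 UMIs. Unthinned, 10 of them (6.99%) had a UMI of Nkx6-1, never more than 1 UMI, and 2 (1.40%) had Pdx1, 2 (1.40%) Nkx2-2 and 0 Mnx1. Thinned to 4000 UMIs, 1 of the 143 had Pdx1 (0.699%) and 0 had any of the other factors, which allows up to 2.10% (3 of 143). The Gcg only share of Nkx6-1 was above this background in both libraries. That of Pdx1 in library 1 had an exact interval of 1.56 to 7.76%, which overlaps the 0.0177 to 3.83% of the background. Those of Mnx1 lay within the limit. Thinned shares this low cannot tell expression from background, so neither is read as expression. Had Pdx1 come with insulin in the ratio of insulin only cells, Gcg only cells would hold 3.83 and 3.05 UMIs. Seen were 17 and 4 UMIs, and the source of the excess was not tested.

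Cells without a hormone carried Pdx1 and Mnx1 mainly where ductal markers led, and Nkx6-1 and Nkx2-2 mainly in 8 cells that no list led. A list led where it had the most UMIs in a cell, at 10 or more. The 21 ductal-led cells held 47 of the 57 Pdx1 UMIs of the hormone-free group and 10 of its 11 Mnx1 UMIs. In library 1 all 4 of these Mnx1 UMIs came from 1 cell. Ductal markers were also found in hormone cells, at 597 and 535 CPM in Ppy only cells, so a leading ductal list does not settle the cell type. Pdx1 was present in 7 of 11 such cells in library 1 and 3 of 10 in library 2, with up to 16 UMIs in a cell. Nkx6-1 was unevenly spread, with 38 UMIs in library 1, of which 1 cell held 32, and 5 in library 2. The 8 cells with fewer than 10 UMIs of every non-endocrine list held 88 of the 141 Nkx6-1 UMIs and 28 of the 37 Nkx2-2 UMIs. The ductal marker sum of the hormone-free group was 1681 CPM and 567 CPM in the libraries. Pdx1 had the same order (21.4 and 10.7 CPM) and Mnx1 the opposite one (2.51 and 3.24 CPM). With 2 libraries such an order was not tested.

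The number of factors seen in the same cell was read from the thinned counts. At least 3 of the 4 were seen in 39.3% ± 1.24 (SD, n = 2) of insulin only cells, in 21.1% of insulin cells with another hormone, in 5.91% of Ppy only cells and in 0.549% of Gcg only cells. All 4 were seen in 3.51% of insulin only cells and in none of the other 8 groups at this depth. At 8000 UMIs all 4 were seen in 12.3% of insulin only cells, 5.12% of insulin cells with another hormone and 0.943% of Ppy only cells. Without thinning these means were 22.6%, 14.7% and 1.85%, with 0.543% of cells without a hormone. The absence of all 4 from other groups thus depended on depth. At the first depth, the pair that divided the groups was Pdx1 and Nkx6-1. Insulin only cells held the pair in 69.1% of cells, Nkx6-1 without Pdx1 in 28.2% and Pdx1 without Nkx6-1 in 1.09%. Nkx6-1 without Pdx1 was seen in 61.8% of Ppy only cells, and Pdx1 without Nkx6-1 in 43.2% of Sst only cells, with the pair in 9.23% and 2.86%.

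**Figure D4:**
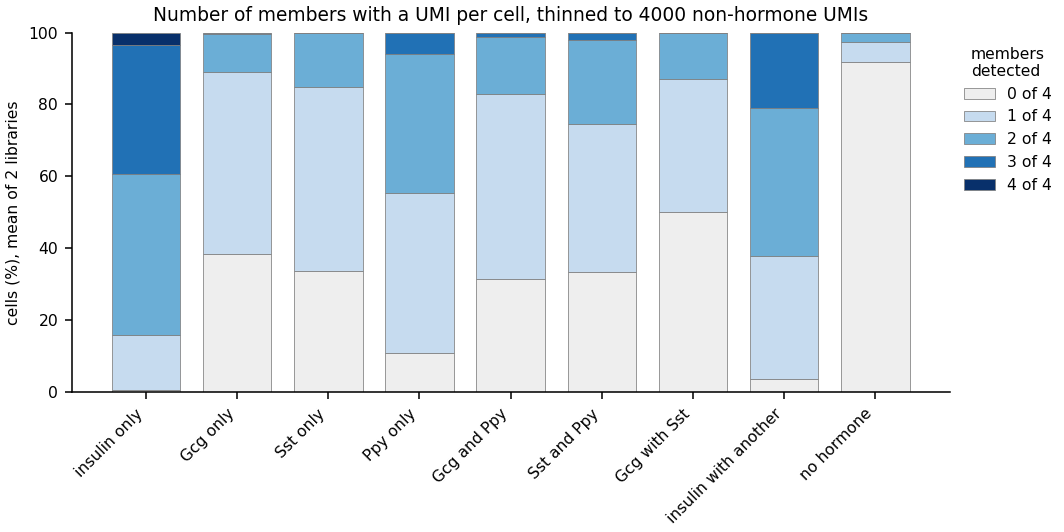
Percent of cells (vertical, mean of 2 libraries) in each group with 0 to 4 of the factors detected, after thinning to 4000 non-hormone UMIs. Insulin only cells have the tallest dark segments, with at least 3 factors in 39.3% of cells, and the group without a hormone has 91.8% of its cells with none.

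Within insulin only cells the factors were compared over the share of insulin among all UMIs. From cells with 10 to 30% insulin (29 and 22 cells) to cells with 30 to 50% (126 and 119 cells), Nkx6-1 went from 1117 and 1073 CPM to 1481 and 1594 CPM, a fold of 1.33 in library 1 and 1.49 in library 2. Pdx1 went from 292 and 264 CPM to 347 and 365 CPM, or 1.19-fold and 1.39-fold. Nkx2-2 went from 134 and 164 to 164 and 180 CPM. Mnx1 was 25 and 37.2 CPM in the lower bin and 39.5 and 35.8 CPM in the higher, in opposite directions in the libraries. At 50% or more (25 and 47 cells), Nkx6-1 was 1418 and 1619 CPM and Pdx1 370 and 281 CPM. Scaling to all UMIs, insulin included, brought the fold of Nkx6-1 to 1.12 ± 0.110 and that of Pdx1 to 1.03 ± 0.129 (SD, n = 2). Pdx1 then went in opposite directions in the libraries (0.934 and 1.12), Nkx2-2 went down in both (0.967 and 0.884), and Nkx6-1 at 50% or more was lower than at 10 to 30% in both (626 and 731 against 863 and 793 per 1000000 of all UMIs). Both size and direction thus depend on whether the hormone is in the denominator. Between cells of the insulin only group, thinned counts of the factors were nearly unrelated: Spearman's rho across the 182 and 189 cells lay between -0.10 and 0.13 for the 6 pairs, described without a test, and counts this sparse hold weak correlations down.

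**Figure D5:**
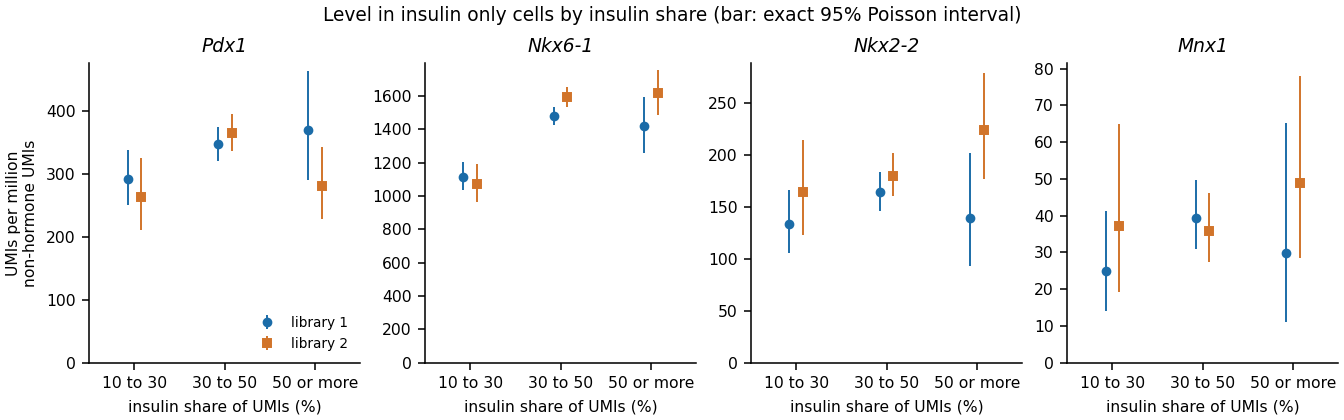
Level of each factor in CPM (vertical, from 0) in insulin only cells by their insulin share (horizontal, percent of all UMIs), by library, with exact 95% Poisson intervals. On this scale, without hormone UMIs, Nkx6-1 is lower at 10 to 30% insulin (1117 and 1073 CPM) than in the higher bins in both libraries, which does not hold per all UMIs.

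The genes whose levels were most like those of each factor were named from the 18 sums of group and library, out of 10967 genes whose mean reached 10 CPM. The values share libraries and depth, so r is a description. For Pdx1 they were Iapp (amyloid polypeptide, co-secreted with insulin; Pearson's r 0.988), Mlxipl (the carbohydrate response factor ChREBP; 0.986), Galnt14 (0.967), Nectin3 (0.966) and Rasgrf1 (0.962). Iapp, like Pdx1, was high in Sst only cells (15200 ± 215 CPM against 48980 ± 916 in insulin only cells) and low in Gcg only cells (561 ± 102 CPM). Nkx6-1 was closest to Mt1 (a metallothionein; 0.946), Lhx1 (a LIM homeodomain factor; 0.939), Hdlbp (0.934), Tmem163 (0.923) and Ntrk2 (the BDNF receptor; 0.918). Mt1 stood at 1039 ± 57.1 CPM in insulin only cells, 340 ± 50.4 CPM in Ppy only cells and 42.7 ± 1.29 CPM in Sst only cells, the order of Nkx6-1. Nkx2-2 was closest to Scgn (the calcium sensor secretagogin; 0.969), Rimbp2 (0.963), Cpe (carboxypeptidase E, which trims prohormones; 0.962), Tmed3 (0.961) and Nav2 (0.961). Mnx1 was closest to Msln (0.983), Sytl4 (granuphilin, of granule docking; 0.980), Tmem215 (0.980), Mafa (the beta cell maturity factor; 0.980) and Cib3 (0.979). Among the factors themselves r was highest for Nkx6-1 with Mnx1 (0.816) and 0.573 for Pdx1 with Mnx1, against 0.390 for Pdx1 with Nkx6-1 and 0.162 for Pdx1 with Nkx2-2.

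A list of 14 genes of beta cell function was read in the same fit, with earlier results of these data known. Of these, 11 rose and 1 fell in insulin only against Gcg only cells, with a median log2 difference of 6.66 against 0.02 over all genes. Mafa was at 1189 ± 38.2 CPM against 2.53 ± 1.43 CPM (adjusted p 4.18e-12, edgeR), and Ucn3 (urocortin 3), Glp1r (the GLP-1 receptor) and Prlr (the prolactin receptor) followed, by 7.94, 7.86 and 7.79. Abcc8, a subunit of the ATP-sensitive potassium channel, was lower (-0.46, SE 0.14, adjusted p 0.0238). Against Sst only cells 11 rose and 2 fell (median 5.78, all genes 0.03), led by Mafa and Ucn3, each with 1 UMI in the Sst only group, G6pc2 (8.05, SE 0.43) and Slc2a2 (the GLUT2 glucose transporter; 7.17, SE 0.58), while both channel subunits, Kcnj11 (-0.71) and Abcc8 (-0.51), were lower. Against Ppy only cells 12 rose and 1 fell (median 4.51, all genes 0.02). In insulin cells with another hormone 0 rose and 7 fell against insulin only cells (median -1.0, all genes -0.04). Of all genes, 24.9%, 14.8%, 20.3% and 2.61% were called in these comparisons, in the order given.

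Cofactors described for these factors changed in both directions. Of 20, 3 were higher and 4 lower in insulin only against Gcg only cells (median 0.02, as over all genes), 6 and 4 against Sst only cells (median 0.09, but -0.08 without TMM scaling and -0.13 at a hormone threshold of 5%) and 4 and 3 against Ppy only cells (median -0.06). In all 7, 10 and 7 of the 20 were called, beside 24.9%, 14.8% and 20.3% of all genes. Tle3, one of the Groucho corepressors, was higher than in Gcg only cells (103 ± 2.94 against 35.5 ± 3.64 CPM, log2 1.60, SE 0.22, adjusted p 1.84e-05) and than in Sst only cells (1.93, SE 0.32, adjusted p 3.04e-04), whereas Tle1 was lower than in Gcg only cells (-1.18, SE 0.22, adjusted p 4.39e-04). Isl1, a LIM homeodomain factor, was lower than in either group (-0.49 and -0.91), and so was Smarca2, a chromatin remodelling ATPase (-0.61 and -1.45). Spop, which targets Pdx1 for degradation, and Chd4, a NuRD complex helicase, were higher than in Gcg only cells by 0.49 and 0.43. Against Sst only cells Neurod1 (1.48), the methyltransferases Dnmt3a (0.81) and Setd7 (0.76) were higher and Meis2, a TALE homeodomain factor, lower (-1.14). All of these passed edgeR's test at adjusted p-values of at most 0.0407.

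Factors that mark the other hormone states were mostly lower in insulin only than in Gcg only cells. Of 8, none rose and 7 fell in insulin only against Gcg only cells (median -5.03, all genes 0.02). Irx1, an Iroquois homeodomain factor, was at 2.45 ± 1.90 CPM in insulin only cells and 304 ± 20.3 CPM in Gcg only cells, and Pou3f4 had 3 UMIs and 30.4 ± 1.03 CPM. Against Sst only cells 1 rose and 2 fell. Hhex, the delta cell factor, was at 398 ± 115 CPM in Sst only and 3.27 ± 1.64 CPM in insulin only cells (-6.68, SE 0.41, adjusted p 1.29e-09), and Etv1 was lower too (-3.75, SE 0.24, adjusted p 1.97e-09). The median there was -1.14, or 0.95 without the 3 genes that had at most 3 UMIs in both groups. It turned with the library left out, at 3.02 without library 1 and -2.96 without library 2. Of the 8, 1 rose and 5 fell against Ppy only cells, and in insulin cells with another hormone 6 rose and none fell against insulin only cells.

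Among 50 other homeodomain genes, 43 had a row and 34 passed the filter on low counts. The list shares Irx1, Hhex, Meis2 and others with the lists above. Of the 34, 6 rose and 10 fell in insulin only against Gcg only cells, 2 rose and 7 fell against Sst only cells and 4 rose and 8 fell against Ppy only cells, with median differences between -0.14 and 0.04. Called were thus 47.1%, 26.5% and 35.3% of the list, beside 24.9%, 14.8% and 20.3% of all genes. Pbx3 (2.56, SE 0.24), Lhx1 (2.39, SE 0.39), Hopx (1.75, SE 0.33) and Pax6 (0.81, SE 0.15), an endocrine master factor, were higher than in Gcg only cells, with adjusted p-values of at most 5.39e-04 in edgeR. Nkx6-3, a relative of Nkx6-1, had 0 UMIs in insulin only cells and 26 in Gcg only cells, an adjusted p of 0.00268. Against Sst only cells Cux2 (1.56, SE 0.34) and Lhx1, with 2 UMIs in Sst only cells, were higher, and Zfhx4 (-5.01, SE 0.50), Prox1 (-1.21, SE 0.36) and Meis2 were lower.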

How the data were processed

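Islet cells of 1 control preparation were profiled in 2 libraries. The authors deposited UMI counts per gene and cell, made with their Cytonaut software, with barcodes chosen at a knee in depth by UMI-tools, exon reads only, and GRCm38 as genome build. Barcodes below the knee and intronic reads are therefore not in the counts, and 0 columns of values were left unused. The same cell filter the methods list (at least 200 genes, at most 20% mitochondrial UMIs) removed 0 cells. Scrublet in scanpy 1.11.5 called 16 doublets (1.08%), which were kept.

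Counts were summed per hormone group and library (18 sums of at least 10 cells, 9 residual degrees of freedom) without the 5 hormone genes, scaled by TMM, filtered with filterByExpr and tested with edgeR 4.0.16 (glmQLFit, glmQLFTest) in R 4.3.3, in 1 fit of 10 contrasts. DESeq2 1.42.0 was an alternative. The coefficient of variation between libraries was 15.1%. Sums of different groups come from the same libraries. An exact permutation of 2 against 2 libraries allows no two-sided p under 0.333, so levels and shares were not tested singly. Intervals are exact 95% binomial or Poisson intervals for counting error, and intervals of fitted differences use 9 degrees of freedom. The script was tested on simulated data. Members and lists were chosen with earlier results of these data known. Genes named besides the members were the 5 most alike by Pearson's r on log2(CPM + 10), and up to 4 called genes per list and direction with the largest difference in 2 comparisons. In 1 list, Ero1b was matched to its older symbol Ero1lb. Promoters came from RefSeq, which matched 4 of the 4 members, and gene coordinates from GENCODE M21. Protein sequences were not used here. Reads from paralogs that share sequence, such as Nkx6-2 or Nkx6-3, depend on the authors' assignment. Some genes that the rule for named genes picks are not reported here.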

Additional observations from a re-analysis of the deposited data

How the results depend on the processing

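Across 35 differences of the factors, 314 of 329 values under other settings kept their direction and side of the threshold. Nkx2-2 crossed 0 where it was near it: -0.041 against Gcg only cells with cells thinned to 4000 UMIs, and against Ppy only cells -0.026 at a threshold of 0.5%, -0.056 at 5%, -0.051 without TMM and -0.14 thinned. It also did so in Gcg and Ppy against Gcg only cells (-0.14 at 5%) and in Sst and Ppy against Sst only cells (-0.049 without doublets, -0.010 in DESeq2). For Nkx6-1, Sst only against Gcg only cells fell short of the threshold when thinned (-0.73, adjusted p 0.349) and ranged from -2.78 to -1.65 with 1 library left out, and insulin with another hormone did so at 0.5% (-0.72, adjusted p 0.0812). Passing only without a filter on low counts were Pdx1 in Gcg and Ppy cells (1.5, adjusted p 0.0475), Nkx6-1 in Sst and Ppy cells (1.82) and Pdx1 in insulin with another hormone (-0.70, adjusted p 0.00844). Nkx6-1 in Gcg and Ppy cells passed without the filter (0.75) and in DESeq2 (0.77). The cause was not tested for any of these. Without TMM the median of all genes in insulin only against Sst only cells was -0.11, against 0.03.

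With thinned cells, which hold fewer UMIs, called genes came to 1187 (insulin only against Sst only), 1718 (against Ppy only), 4911 (against no hormone), 1030 (Sst only against Gcg only), 643 (Sst only against Ppy only) and 782 (Gcg only against Ppy only), each lower than in the full counts, with 1 for Sst and Ppy cells, also lower, and 11 for Gcg and Ppy cells, higher than the 6 there. The fit of 4 single-hormone groups called 2402 between Gcg only and Ppy only cells. Gcg and Ppy cells had 18 in DESeq2 and 127 without the filter. Sst and Ppy cells had 59 without the filter and 1 without doublets or at 0.5%, and insulin with another hormone had 685 without the filter.

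In insulin only cells, per 1000000 of all UMIs, levels were 203 for Pdx1, 873 for Nkx6-1, 103 for Nkx2-2 and 21.9 for Mnx1, with insulin in the denominator. Pdx1 was at 335 CPM at 0.5%, 325 CPM at 5% and 334 CPM as a mean over cells, and Mnx1 at 34.5 CPM at 5% and 38.4 CPM as a mean over cells. Shares of cells without thinning and at 8000 UMIs were 92.5% and 87.7% (Pdx1), 99.7% and 99.3% (Nkx6-1), 76.6% and 67.0% (Nkx2-2) and 30.1% and 22.5% (Mnx1), and at least 3 factors were then seen in 78.5% and 68.5%. The folds between insulin bins per all UMIs were 1.03 (Pdx1), 1.12 (Nkx6-1) and 0.925 (Nkx2-2). Of the levels, shares and joint shares of all groups under other settings, 56, 63 and 15 moved by over 1 SD of the libraries and 112, 69 and 3 did not.

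Sums of the same library deviated together with correlations of -0.09 to 0.14 (median 0.007, 36 pairs of groups), so the numbers mark only the library. With the replicate block, no call of a factor changed, and insulin only against Gcg only cells had 3599 called genes and Nkx6-1 a difference of 4.36. At 5%, Gcg with Sst, Sst and Ppy, and insulin with another hormone fell under 10 cells per sum and could not be fitted. With 1 library no test was possible. Depth limits Mnx1 most, with 184 UMIs in all insulin only cells.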
